A study of Homo sapiens with 4 samples.

Results

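The baseline transcriptome of KM-H2, an established human Hodgkin lymphoma line grown from the cells of a pleural effusion, was described from the 2 arrays of cells that received a non-silencing control. These are 2 of the 4 arrays of the series. The other 2 arrays hold KM-H2 cells in which a lentiviral hairpin was aimed at the fusion transcript CIITA-BX648577. The fusion was identified in this line, so the control cells carry it as well. The labels give the control cells no further treatment, and they do not say whether the 2 replicates came from separate cultures. Every level below is an absolute one, and no change after the knockdown is described. A value is the linear intensity of a probe set, a group of short oligonucleotides on the array that report 1 transcript region. Where a gene had several probe sets, its brightest was used, chosen by the mean of log2(intensity + 16) over both control arrays, and probe sets annotated with several genes or none were left out. This gave 19775 named genes.

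Classical Hodgkin lymphoma is a B cell cancer whose malignant cells, the Hodgkin and Reed-Sternberg cells, descend from germinal centre B cells but carry few of the surface proteins of a B cell. They are known for the receptor CD30, encoded by TNFRSF8, and for active NF-kB and JAK-STAT signalling. They also secrete chemokines that attract other blood cells. HLA class II molecules present peptides to helper T cells and are switched on by the transactivator CIITA, the gene that is fused in KM-H2. Growing cells of any kind need glycolysis, respiration and the synthesis of nucleotides, amino acids and lipids.

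The deposited table holds no detection call, so background was measured on the array itself. Receptors for smell and bitter taste, keratin-associated proteins and beta-defensins are used in nose, tongue, hair or epithelium, and 147 named genes belong to these families. A gene is called above background here if it exceeded the 95th percentile of these 147 genes on both control arrays. This percentile was an intensity of 17.3 on replicate 1 and 19.8 on replicate 2. A gene that exceeded it on neither array is called below background, and a gene that exceeded it on 1 array is called split. By this rule 8495 of 19775 named genes, or 43%, were above background, 10153 were below (51.3%) and 1127 were split (5.70%). A 99th percentile, at 24.5 and 30.6, left 7135 genes, or 36.1%. The median intensity was 14.9 over all named genes and 75.6 over those above background.

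**Figure D1:**
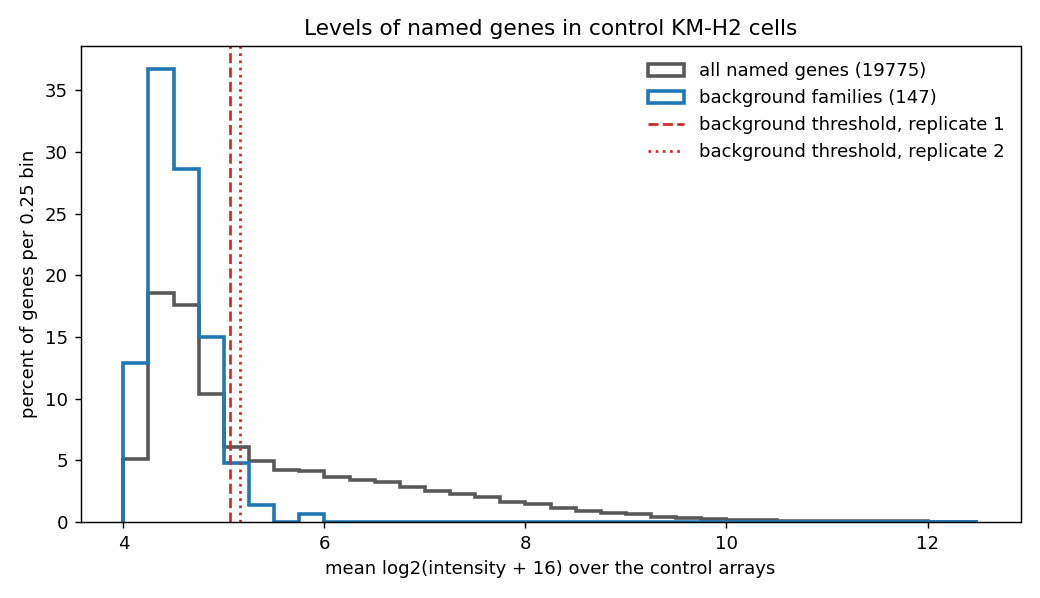
Distribution of the mean log2(intensity + 16) over the 2 control arrays, as the percent of genes in each bin, for all 19775 named genes (grey) and for the 147 genes of the background families (blue). Vertical lines mark the background threshold of each array. The background families had a median intensity of 6.86, and all named genes reached far past the thresholds to the right.

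Probe sets differ in how well they bind, so a rank orders probe sets and not transcripts, and no gene's level is set against another's. A dim probe set does not show that a transcript is absent. Of 60 ribosomal proteins, which every cell needs, 58 were above background. RPL36A, at 9.42 and 8.55, and the muscle form RPL3L were below. The RNA is from whole cultures, so a low level in all cells and a high level in a few cannot be told apart. Of the 8495 genes above background on the control arrays, 8204 (96.6%) also exceeded the same percentile on both knockdown arrays.

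The 2 control arrays differed little. Over genes above background, log2(intensity + 16) of replicate 1 minus replicate 2 had a median of 0.02, and the median size of the difference was 0.11. The arrays correlated at 0.991 over these genes, which are not independent of each other. The 95th percentile of the difference was 0.40 for genes with means up to 50 and 0.21 for genes over 500. None of the 8495 genes differed by more than 1. Among the split genes 19 did, and SGO1, which protects the cohesion of sister chromatids, stood furthest apart. It read 15.4 on replicate 1 and 1655 on replicate 2, against 16 and 13.4 on the knockdown arrays, so a single array carries its mean level. It was picked after its values were seen.

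**Figure D2:**
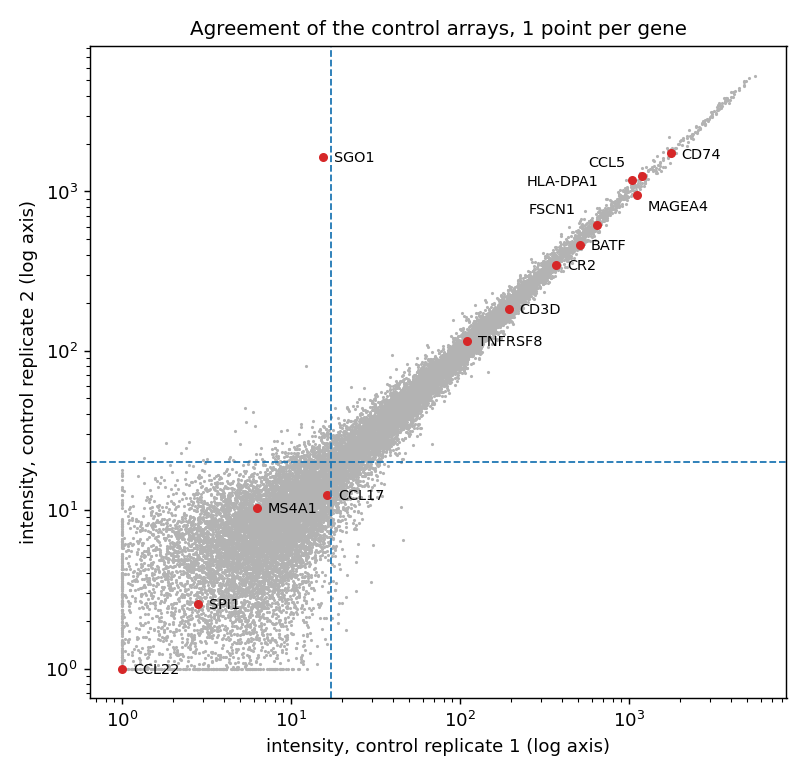
Intensity of each named gene on control replicate 1 (horizontal, log axis) against control replicate 2 (vertical, log axis), 1 point per gene, with genes named in the text in red and dashed lines at the background thresholds. Points above background lie along the diagonal, and SGO1, at 15.4 and 1655, lies far from it.

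Pairs of values below are the intensities on control replicate 1 and control replicate 2, in that order (n = 2). The 5 genes that mark the line, CD74, HLA-DPA1, FSCN1, BATF and TNFRSF8, were all above background, and 4 of them ranked in the highest 10% of named genes. CD74, the invariant chain that escorts class II molecules, read 1767 and 1741. Its other probe sets, of 22.1 and 9.44 on average, were near or below the thresholds. HLA-DPA1, a class II alpha chain, read 1038 and 1173. FSCN1, the actin-bundling protein fascin and a stain used for Hodgkin cells, read 644 and 618. BATF, an AP-1 family factor, read 514 and 462. TNFRSF8, the CD30 receptor, read 109.8 and 115. The arrays lay close together for each of the 5. These markers were chosen with earlier results of these data known, so their calls do not test the label.

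The top of the ranking was taken by genes of protein synthesis. RPL41 ranked first, at 5551 and 5354, and RPS6 next, at 5099 and 5188. The elongation factor EEF1A1 read 4132 and 3926, and COX1, a cytochrome oxidase subunit of the mitochondrial genome, read 3726 and 3892. With ribosomal proteins, translation factors, histones, actins, tubulins and mitochondrial-genome genes set aside, the highest were GAPDH, TPT1, NACA, FTH1P5, HUWE1, SRGN and B2M. SRGN, the proteoglycan core of secretory granules in blood cells, read 3402 and 3295. HUWE1, a ubiquitin ligase, read 3389 and 3535 at a probe set whose probes can match other transcripts, while its other probe sets averaged no more than 122. FTH1P5 is a ferritin pseudogene, which such probes cannot separate from ferritin itself. The chaperone HSPD1 read 2824 and 2648 and the nucleolar protein NPM1 read 2784 and 2734.

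To describe lineage, signalling and metabolism, 43 lists of genes in 6 classes were set beside the 43% over all named genes. B lineage and Hodgkin genes were above background in 90 of 157 cases (57.3%). That class pools the 5 markers of the line, Hodgkin genes and antagonists of the B cell programme with B cell genes. Its lists were chosen with earlier results of these data known, so its share is no measure of B cell identity. Within the class, Hodgkin genes were above in 88.2%, B cell transcription factors in 77.3%, B cell surface genes in 31.4% and immunoglobulin genes in 28.6%. Genes of other blood lineages were above in 24 of 126 (19.0%), and genes of other tissues in 25 of 120 (20.8%). Signalling and immune genes were above in 194 of 311 (62.4%), metabolic genes in 259 of 354 (73.2%), and cell cycle and ribosomal genes in 89 of 100 (89%). The medians were 35.3, 7.63, 9.54, 46.8, 105 and 1464 in the same order, beside 14.9 over all named genes. At the 99th percentile the counts were 82, 19, 18, 176, 243 and 86.

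**Figure D3:**
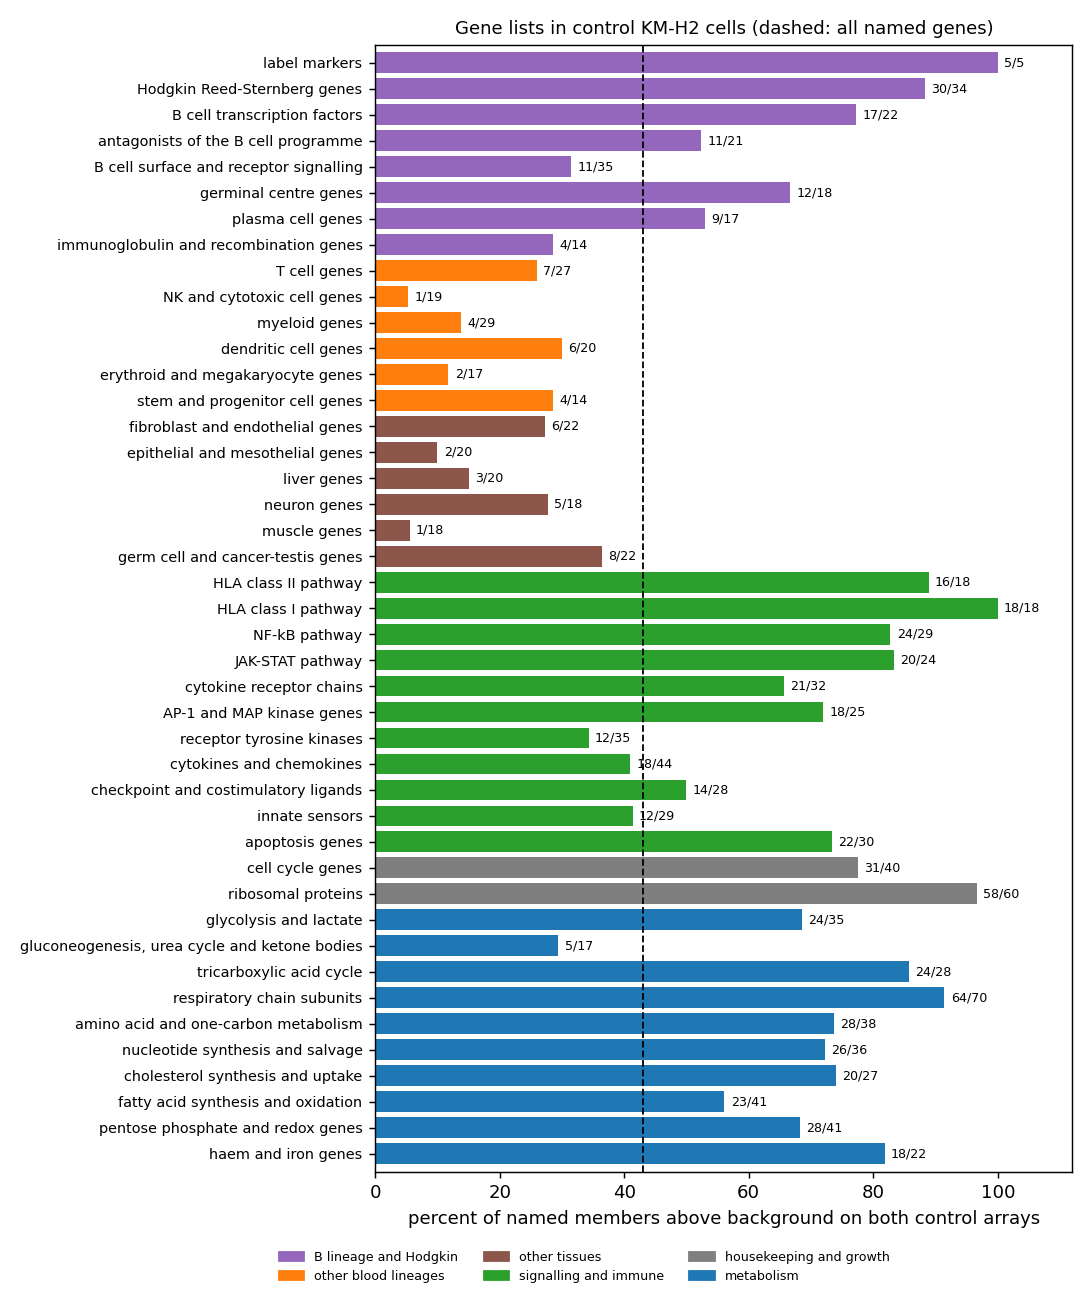
Percent of each list's named genes above background on both control arrays, with the number above and the number named beside each bar, coloured by class, and a dashed line at the value for all named genes. Class I and ribosomal protein genes lie at or near 100%, and genes of muscle, natural killer cells and epithelium at 10% or less.

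Antigen presentation by class II was above background at nearly every step. Of 18 class II pathway genes 16 were above background, 1 was split and 1 was below, with a median of 119. Besides HLA-DPA1, the chain HLA-DRB1 read 729 and 773, HLA-DPB1 read 526 and 590.1, and HLA-DRA read 323 and 324. Probes for these chains can match close relatives in the same cluster, so single chains are uncertain. CIITA itself read 59.6 and 65.1 at its brightest probe set and was not above background when its probe sets were averaged. RFX5, which binds the class II promoters with CIITA, read 188 and 173. HLA-DMA, part of the peptide editor, read 121 and 115, and HLA-DOB, part of its inhibitor, was split at 17.9 and 8.18.

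Class II promoters carry an X box, bound by the RFX complex, and a CCAAT motif, bound by NF-Y, in the stretch before the start. RefSeq promoters (GRCh38.p14) of 300 bases, from 250 before to 50 after the start, were found for 14 of the 18 class II genes. A core of the X box (AG, any 2 bases, AC, any base, GATG) was sought on both strands. It lay in 4 of the 14 (28.6%), against 283 of 27305 genes with a promoter (1.04%). The X box is known from class II promoters, so a higher share there is no test. HLA-DPA1, HLA-DPB1, HLA-DQA1 and CD74 were among the class II genes without a match. The letters CCAAT, on either strand, lay in 11 of the 14 (78.6%), against 39.7% of all. Each motif was counted on its own, whether or not it overlapped another. These 4 promoters are shown because they hold both motifs and belong to genes above background, 5′ to 3′ on the minus strand, with the X box core and each CCAAT or ATTGG in capitals. HLA-DRB1 lies at chr6:32589799-32590098, HLA-DQB1 at chr6:32666608-32666907, HLA-DMA at chr6:32953048-32953347 and HLA-DMB at chr6:32940979-32941278.
HLA-DRB1: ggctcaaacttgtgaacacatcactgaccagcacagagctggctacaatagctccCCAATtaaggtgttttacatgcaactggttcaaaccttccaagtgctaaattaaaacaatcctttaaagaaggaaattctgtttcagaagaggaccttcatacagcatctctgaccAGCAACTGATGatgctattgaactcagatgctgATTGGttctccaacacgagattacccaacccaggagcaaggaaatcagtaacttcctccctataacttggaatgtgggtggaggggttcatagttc
HLA-DQB1: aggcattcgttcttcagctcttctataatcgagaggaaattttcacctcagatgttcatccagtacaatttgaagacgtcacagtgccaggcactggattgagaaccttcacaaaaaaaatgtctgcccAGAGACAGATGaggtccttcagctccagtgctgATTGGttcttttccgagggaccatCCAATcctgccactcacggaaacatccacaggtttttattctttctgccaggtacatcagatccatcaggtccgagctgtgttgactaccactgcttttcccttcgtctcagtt
HLA-DMA: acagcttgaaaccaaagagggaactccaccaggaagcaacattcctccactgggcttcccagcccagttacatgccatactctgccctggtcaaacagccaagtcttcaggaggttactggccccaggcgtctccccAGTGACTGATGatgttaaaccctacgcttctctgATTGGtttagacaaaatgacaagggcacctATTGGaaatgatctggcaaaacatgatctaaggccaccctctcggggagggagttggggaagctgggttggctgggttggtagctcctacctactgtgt
HLA-DMB: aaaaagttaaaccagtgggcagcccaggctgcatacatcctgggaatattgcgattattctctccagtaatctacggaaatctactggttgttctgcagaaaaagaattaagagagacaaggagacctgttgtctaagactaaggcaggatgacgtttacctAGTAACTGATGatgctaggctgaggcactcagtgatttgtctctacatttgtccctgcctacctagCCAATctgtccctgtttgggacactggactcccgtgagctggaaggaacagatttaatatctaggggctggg
Between the X box core and the next CCAAT lay 22 bases in HLA-DRB1 and HLA-DQB1, 23 in HLA-DMA and 55 in HLA-DMB. HLA-DQB1 read 278 and 308, and HLA-DMB read 72.2 and 76.6. None of the 15 class I pathway promoters held the X box core, and neither did any of 29 promoters of B cell surface and receptor genes. With matches in 1.04% of all genes with a promoter, so few promoters cannot show that class I genes lack an X box. A match is a description of letters and no binding was measured here.

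All 18 class I pathway genes were above background, with a median of 231, and 17 were above at the 99th percentile. With only probe sets that carry no suffix, 9 were above. Here and below, a gene with no such probe set was counted as not above. A lower count of this kind can therefore reflect a missing measurement. B2M, the light chain of class I, read 3357 and 3261, a call lost with only probe sets that carry no suffix. HLA-B read 1329 and 1377. TAP1, which pumps peptides into the endoplasmic reticulum, read 361 and 368. CANX, a chaperone of the heavy chain, read 1379 and 1363. The exception at the 99th percentile was NLRC5, the class I relative of CIITA, at 34.6 and 22.3.

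Hodgkin and Reed-Sternberg genes were above background in 30 of 34 cases (88.2%), with a median of 127. VIM, an intermediate filament, read 2264 and 2446. CD83, a maturation marker of dendritic cells, read 1032 and 1103. LGALS1, an immune-suppressing lectin, read 534 and 559.9. Factors of the AP-1 family and an inhibitor of B cell factors were also above background on both arrays. ID2, an inhibitor of the B cell factor TCF3, read 582 and 653. BATF3, a partner of BATF, read 492 and 486, and JUNB, an AP-1 subunit, read 395 and 365. EBI3, a subunit of the cytokines IL-27 and IL-35, read 396 and 430.3.

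Most of the list's factors, receptors and adaptors were above background as well. IRF4, a plasma cell and Hodgkin factor, read 223 and 253, though the median of its probe sets was not above background. GATA3, a T cell factor, read 122 and 135, and CSF1R, a macrophage receptor, read 84.8 and 75.7. FUT4, which makes the CD15 sugar, read 76.6 and 73.9, and TRAF1, an adaptor downstream of CD30, read 46.5 and 55.9. The Hodgkin chemokines CCL17, at 16.4 and 12.4, and CCL22, at the floor of 1 on both arrays, were below background. IL2RA, the alpha chain of the IL-2 receptor, was just below, at 16.9 and 17.9.

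Most of the listed transcription factors of B cells were above background at their brightest probe set, but several key genes of the list were not or lost their call. Of 22 B cell transcription factors 17 were above background, 1 was split and 4 were below (median 77.1). TCF3, the E2A factor, read 305 and 314, CBFB read 544 and 523, and RUNX3 read 331 and 313. BCL6, the germinal centre repressor, read 83.6 and 87.5, and SPIB, an ETS factor, read 64.3 and 66.9. PAX5, which commits a cell to the B lineage, lay near the thresholds. It read 25.5 and 19.9, and its call was lost at the 99th percentile and with its probe sets averaged. EBF1 read 41.2 and 53.5 and POU2F2 read 26.7 and 32.5, and both calls were lost with the probe sets averaged. With the median of each gene's probe sets, 10 of the 22 factors were above background. POU2AF1, the coactivator of octamer factors, was below at 4.62 and 7.75, and SPI1 was below at 2.83 and 2.55. IRF8 was also below, at 11.85 and 18.06, and FOXO1 was split at 17.6 and 19.6.

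Surface and receptor genes of B cells were above background in 11 of 35 cases, or 31.4%, beside 43% over all named genes; 4 were split and 20 were below, with a median of 12.7. With the median of each gene's probe sets 7 were above, and 6 with only probe sets that carry no suffix. MS4A1, which encodes CD20, read 6.25 and 10.3, and all 4 of its probe sets were dim. CD79B, a signalling chain of the B cell receptor, read 10.4 and 9.60, and its partner CD79A read 37.9 and 32.7, a call that was lost with its probe sets averaged. CD22 read 9.71 and 15.9. Of the kinases that carry the receptor's signal, SYK, at 9.47 and 10.8, and BTK, at 3.73 and 4.94, were below. LYN, at 203 and 197, and PIK3CD, at 123 and 151, were above. BLK, at 34.4 and 21.6, was above but lost its call at the 99th percentile and with its probe sets averaged. The adaptor BLNK read 11.5 and 16.2. CR2, the complement receptor CD21, was above at 369 and 345, at 1 of its 2 probe sets.

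Antagonists of the B cell programme were above in 11 of 21 cases (52.4%), a share near that of all named genes. NOTCH2 read 286 and 278, MAML1, a coactivator of Notch, read 241 and 232, and NOTCH1 read 56.5 and 57.3. MSC, which encodes the repressor ABF-1, read 65.8 and 65.7. ID3 read 54.1 and 58.0, and ID1 was below at 5.85 and 16.7.

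Germinal centre genes were above in 12 of 18 cases. GNA13, which confines B cells to the follicle, read 443 and 476, and EZH2, a histone methyltransferase, read 295 and 259. MME, which encodes CD10, was below at 7.27 and 4, LMO2 was below at 7.68 and 2.83, and SERPINA9 was below at 9.16 and 1.60. RGS13, a regulator of chemokine signals, read 51.1 and 45.3. Plasma cell genes were above in 9 of 17 (52.9%), beside 43% over all named genes. Those above included SEC11C at 413 and 443 and SSR4 at 359 and 358, of the secretory machinery, and its regulator XBP1 at 97.3 and 102. They also included the elongation factor ELL2, at 249.9 and 296, and IRF4. SDC1, the plasma cell marker CD138, was below at 4.91 and 9.64, and JCHAIN, the joining chain, was below at 1.56 and 1.11. PRDM1, the plasma cell repressor, read 19.8 and 24.4 and lost its call at the 99th percentile.

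Immunoglobulin and recombination genes were above in 4 of 14 cases. IGLC1, a lambda constant region, read 94.1 and 101, and IGKC, the kappa constant region, read 32.3 and 36.8. Both probe sets can match other light chains, and with each gene's probe sets averaged none of the 14 was above background. IGHM, the mu heavy chain, was below at 15.7 and 11. The recombinase genes RAG1, at 5.52 and 8.99, and RAG2, at 4.64 and 3.34, were below, as was DNTT, at 8.77 and 13.5.

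**Figure D4:**
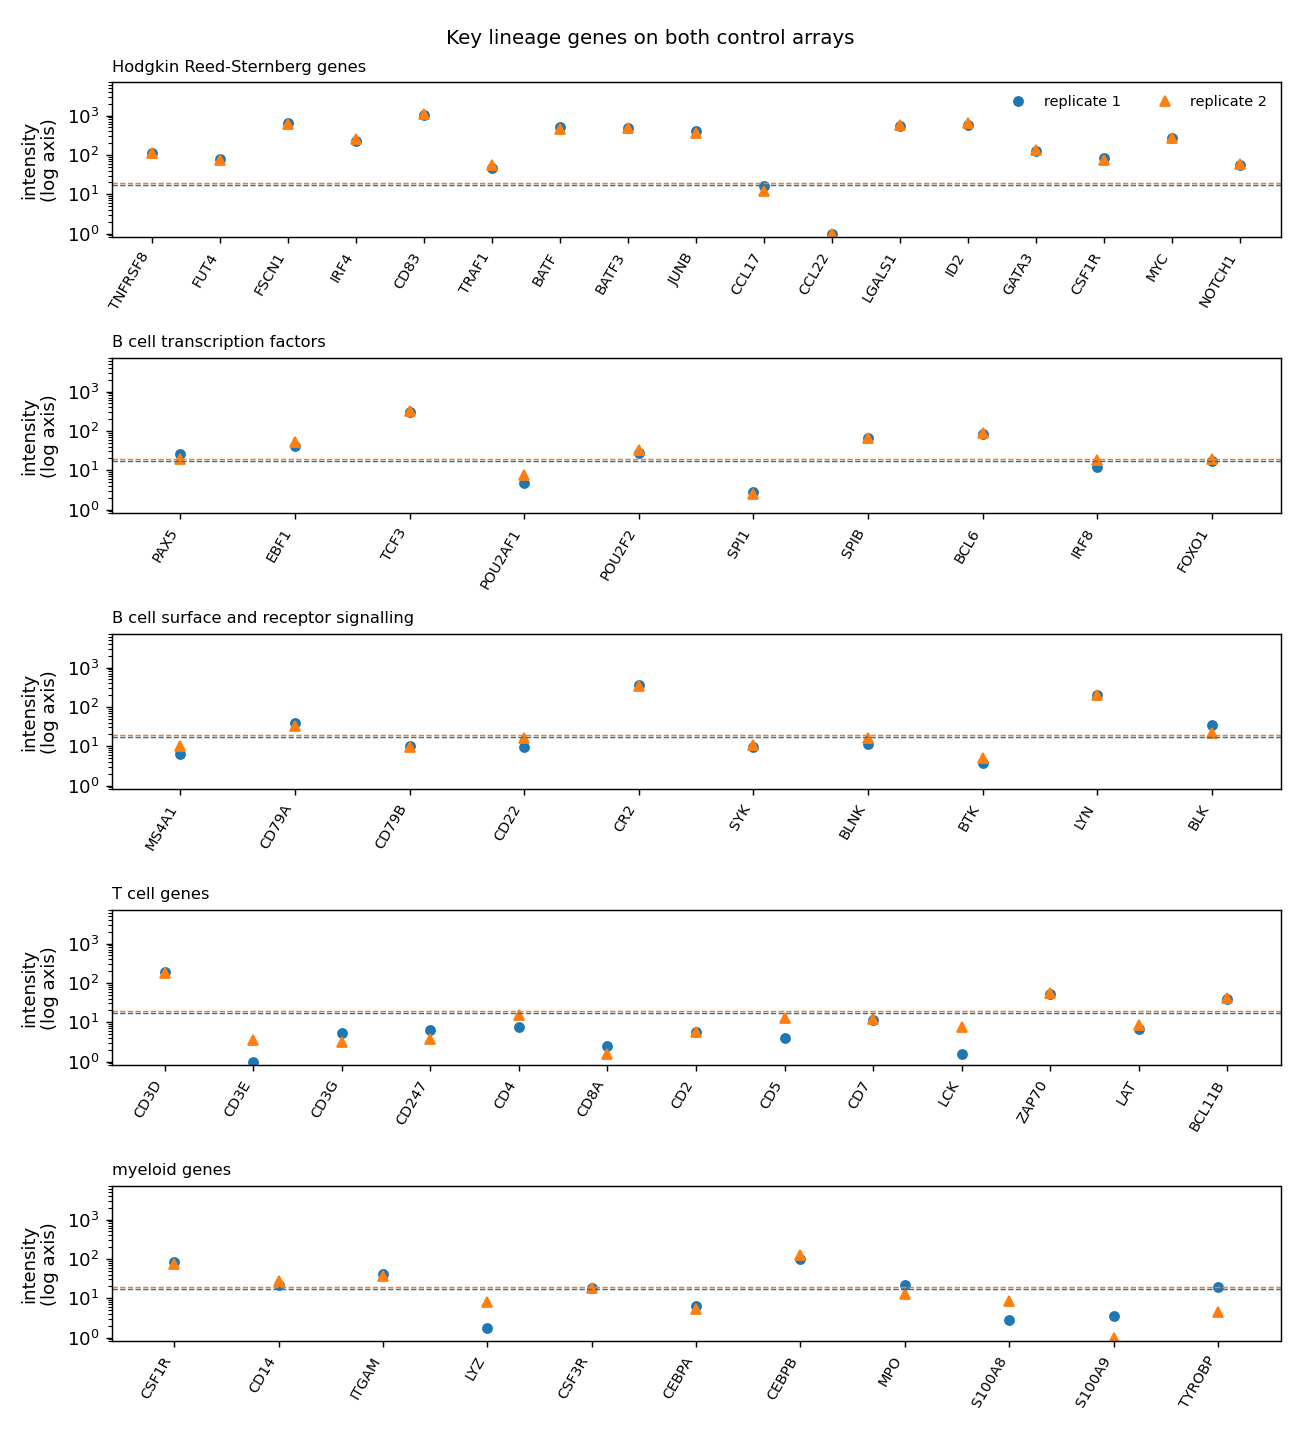
Intensity (log axis) of the key genes of 5 lists on control replicate 1 (circles) and replicate 2 (triangles), with dashed lines at each array's background threshold. Most Hodgkin genes lie above the lines, MS4A1, CD79B, SYK and BTK lie below, and CD3D lies above while CD3E and CD3G lie below.

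T cell genes were above background in 7 of 27 cases (25.9%), with 3 split and a median of 7.96. CD3D, a chain of the T cell receptor complex, read 194 and 183 at its only probe set. The chains that are made with it in T cells were below background: CD3E read 1.00 and 3.53 and CD3G read 5.40 and 3.08. CD2 read 5.78 and 5.76, the kinase LCK read 1.59 and 7.39, and CD8A read 2.42 and 1.53. The others above background were LEF1, a Wnt pathway factor, at 396 and 374, THEMIS at 202 and 198, UBASH3A at 127 and 156, SH2D1A at 79.2 and 65.3, ZAP70 at 52.2 and 54.1, and BCL11B at 40.1 and 40.6. BCL11B lost its call with its probe sets averaged.

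Natural killer genes were above background in 1 of 19 cases. EOMES, a T-box factor, read 45.6 and 40.7, and the cytotoxic proteins PRF1, at 17.1 and 17.4, and GZMB, at 5.94 and 18.6, were below. Myeloid genes were above in 4 of 29, with 3 split, and in 7 of 29 without replicate 2. These 4 were CEBPB at 101 and 123, CSF1R, ITGAM at 40.7 and 37.0, and CD14 at 21.6 and 27.0, and CD14 lost its call at the 99th percentile and ITGAM with its probe sets averaged. Lysozyme, encoded by LYZ, was below at 1.74 and 8.15, and the calprotectin genes S100A8, at 2.86 and 8.58, and S100A9, at 3.44 and 1.00, were below.

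Dendritic cell genes were above in 6 of 20 cases, and 5 of these, CD83, FSCN1, BATF3, CCR7 and CD40, were also on the list of Hodgkin genes. CCR7, the receptor that leads cells to lymph nodes, read 277 and 326. The subset markers CD1C, CLEC4C and XCR1 were below, at means no higher than 17.2. Erythroid and megakaryocyte genes were above in 2 of 17 cases and in none at the 99th percentile. Stem and progenitor genes were above in 4 of 14, and in 2 with the median of each gene's probe sets, with MEIS1, a homeobox factor, at 91.1 and 85.2, and MECOM, at 78.1 and 79.3, the latter lost with its probe sets averaged. CD34 was below at 4.70 and 6.64, and KIT was below at 3.01 and 9.73.

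Genes of other tissues were mostly below background. Fibroblast and endothelial genes were above in 6 of 22 cases, at means no higher than 66.7, and in 2 with the mean and 1 with the median of each gene's probe sets. The collagen genes COL1A1, at 46.4 and 62.3, and COL1A2, at 56.4 and 53.3, and the endothelial adhesion gene PECAM1, at 41.2 and 61.1, were above. PDGFRB, at 6.42 and 6.38, and CDH5, at 2.10 and 3.34, were below. Epithelial and mesothelial genes, which include markers of the pleural lining, were above in 2 of 20 with 3 split, and in 5 of 20 without replicate 2. CLDN18, a tight junction gene, read 50.9 and 47.0, and the keratin KRT7 read 33.1 and 24.9, and neither was above with its probe sets averaged. MSLN, the mesothelial marker mesothelin, read 6.28 and 6.91, WT1 read 1.57 and 15.8, and EPCAM read 1.18 and 7.93. Liver genes were above in 3 of 20, and in 5 without replicate 2. SERPINA1, the antitrypsin gene, read 228 and 232, while albumin, encoded by ALB, was below at 14.5 and 11.1. Neuron genes were above in 5 of 18, of which TUBB3, a beta tubulin, read 412 and 395 at probes that can match other tubulins. The neuron count was 3 at the 99th percentile, 2 with the mean or median of each gene's probe sets and 1 with only probe sets that carry no suffix. Muscle genes were above in 1 of 18, in 3 without replicate 1, and in none at the 99th percentile.

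Germ cell and cancer-testis genes, which are silent in most adult tissues outside the testis, were above in 8 of 22 cases (36.4%). This share lay below the 43% over all named genes. With only probe sets that carry no suffix, 5 were above. MAGEA4 read 1116 and 949, SSX1 read 696 and 698, and PRAME read 357 and 394. MAGEA1 read 280.3 and 261, CTAG2 read 224 and 245, and MAGEC1 read 157 and 139. Except at MAGEA4, PRAME and MAGEC1, these probe sets can match relatives of the same family. The sperm genes PRM1, at 9.34 and 4.88, and TNP1, at 6.66 and 3.01, and the germ cell helicase DDX4, at 2.14 and 2.72, were below.

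NF-kB pathway genes were above background in 24 of 29 cases (82.8%), with a median of 68.1. Among the subunits, RELA read 246 and 244, REL read 227 and 209, NFKB1 read 165 and 176, RELB read 124 and 128, and NFKB2 read 69.7 and 63.8. The inhibitors were above too, with NFKBIA at 532 and 505 and TNFAIP3, which encodes A20, at 220.2 and 278. Of the receptors, CD40 read 133 and 119.5. The kinase subunit IKBKB lay near the thresholds, at 19.9 and 23.9.

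JAK-STAT genes were above in 20 of 24 cases (83.3%), and in 12 of 24 with the median of each gene's probe sets. The kinases JAK1, at 360.4 and 411, JAK3, at 280.4 and 280.2, and TYK2, at 131 and 101, were above, whereas JAK2 was below at 12.3 and 14.8 with all 3 of its probe sets dim. STAT3 read 232 and 252, STAT5B read 165 and 213, and STAT6 read 139 and 122. The feedback inhibitor SOCS2 read 598 and 634, and SOCS1 read 117 and 137. PTPRO, a receptor phosphatase, read 661 and 557 at 1 of its 3 probe sets, and the other two averaged no more than 6.72.

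Cytokine receptor chains were above in 21 of 32 cases. IL1R2, the decoy receptor of IL-1, read 493 and 449, and IFNGR2 read 368 and 445. The shared chain IL2RG read 104 and 123, its partner IL2RB read 236 and 244, and the chains IL21R, at 211 and 188, IL4R, at 166 and 148, and IL13RA1, at 146 and 171, were above. IL6R was split at 5.60 and 20.1, and its signalling partner IL6ST read 89.4 and 105 at its brightest probe set, a call lost with its probe sets averaged. CSF2RA was below at 4.23 and 7.80, while CSF2RB read 104 and 111.

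AP-1 and MAP kinase genes were above in 18 of 25 cases, and in 11 with only probe sets that carry no suffix. At their brightest probe sets the AP-1 subunits divided by family, but several calls depended on the setting. The Jun proteins were above, with JUNB at 395 and 365, JUND at 340.1 and 376, and JUN at 149 and 163. JUND lost its call with the median of its probe sets, and JUN with only probe sets that carry no suffix. Of the Fos proteins, FOS at 7.23 and 2.28, FOSB at 1 on both arrays, FOSL1 at 9.51 and 12.1 and FOSL2 at 16.8 and 19.2 were below. FOSL2 lay near the thresholds and was above at the 90th percentile and without replicate 2. The partners BATF, BATF3 and ATF3, the last at 239.8 and 274, were above. ATF3 lost its call with the median of its probe sets and with only probe sets that carry no suffix. MAP2K1, a kinase of the ERK cascade, read 457 and 555.

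Receptor tyrosine kinases were above in 12 of 35 cases (34.3%), and in 5 of 35 with the median of each gene's probe sets. PDGFRA, a receptor reported in Hodgkin cells, read 303 and 292, and DDR2, a collagen receptor, read 72.1 and 84.8. MET read 102 and 108, FGFR2 read 155 and 162 but lost its call with its probe sets averaged, and TYRO3 read 52.4 and 45.2. PDGFRB, KIT, FLT3, TIE1 and MST1R were below.

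Cytokines and chemokines were above in 18 of 44 cases, or 40.9%, a share near that of all named genes, with a median of 11.7. Those above included chemokines that attract T cells, monocytes or dendritic cells. CCL5 read 1193 and 1246, CXCL10 read 411 and 437, CCL20 read 387 and 447, and CX3CL1 read 204 and 224. MIF, the macrophage migration inhibitory factor, read 1458 and 1675. Among interleukins, IL32 read 139 and 142 and IL6 read 108 and 155. The tumour necrosis factor genes TNF, at 82.7 and 71.4, and LTA, at 74.9 and 68.5, were above. CXCL8, at 5.65 and 6.11, CXCL9, at 7.53 and 9.30, and IL13, at 11.1 and 3.26, were below.

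Checkpoint and costimulatory ligands were above in 14 of 28 cases, or 50%, beside 43% over all named genes. ICAM1, an adhesion ligand, read 319.8 and 350.5, the death receptor FAS read 277 and 280.3, and CD70, the ligand of CD27, read 237 and 241. CD86 read 44.5 and 46.4 and CD80 read 32.5 and 39.9, and the latter lost its call with its probe sets averaged. The PD-1 ligand gene CD274 read 19.7 and 21.2, only just above the thresholds, and lost its call at the 99th percentile and with its probe sets averaged. PDCD1LG2, the other PD-1 ligand, was below at 8.50 and 2.73. Innate sensors were above in 12 of 29 (41.4%), a share near that of all named genes. The adaptor MYD88 read 282 and 252 and STING1 read 70.3 and 69.7, while TLR7 read 61.8 and 47.1, TLR9 was split at 17.9 and 18.2, and TLR2 and TLR4 were below.

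Apoptosis genes were above in 22 of 30 cases, in 12 with the median of each gene's probe sets and in 14 with only probe sets that carry no suffix. The survival proteins BCL2A1, at 701 and 728, MCL1, at 575 and 535, BCL2, at 122 and 149, and CFLAR, at 302 and 353, were above, though BCL2 was not with the median of its probe sets. Of the executioners, BAX read 32.9 and 26.6 and lost its call at the 99th percentile, and BAK1 was below at 12.7 and 14.0. PMAIP1, which encodes the killer protein NOXA, read 310.3 and 338. Cytochrome c, encoded by CYCS, read 1169 and 1086.

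Cell cycle genes were above in 31 of 40 cases, with a median of 125. Of the D cyclins, CCND2, at 1160.0 and 1301, and CCND3, at 68.9 and 61.3, were above background, and CCND1 was below at 5.05 and 10.9. Thymidylate synthase, encoded by TYMS, read 1891 and 1884, and the replication clamp PCNA read 1095 and 977. MKI67, the proliferation marker, read 34.1 and 37.1, TOP2A read 378 and 382, and MYC read 267 and 268. Of the inhibitors, CDKN1A read 136 and 139, CDKN1B read 108 on both arrays, CDKN2A was split at 19.8 and 17.4, and CDKN2B was below at 10.2 and 9.43. CCNA2 read 154 and 133, while the meiotic cyclin CCNA1 was below at 4.30 and 7.62.

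Glycolysis and lactate genes were above background in 24 of 35 cases (68.6%), with a median of 106. Every step from hexokinase to lactate had a gene above background. HK1 read 397 and 522, HK2 read 538 and 674, GPI read 311 and 409, and PFKP read 666 and 697. From the splitting of the sugar on, the same held. ALDOA read 1199 and 1402, TPI1 read 977 and 1069, GAPDH read 3813 and 3866, and PGK1 read 1580.1 and 1771. PGAM1 read 1489.8 and 1464, ENO1 read 2077 and 2165, PKM read 859 and 985, and LDHA read 2819 and 2804. The list's median of replicate 1 minus replicate 2 was -0.09, beside 0.02 over genes above background, with PFKFB4 at 63.6 and 109 and ALDOC at 143 and 201.

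Some isoenzymes lay below background. Among them were the myeloid hexokinase HK3, at 1.00 and 2.92, the liver pyruvate kinase PKLR, at 7.77 and 5.47, and the sperm lactate dehydrogenase LDHC, at 14.4 and 16.4. Others known from particular tissues were above, with the brain aldolase ALDOC as given and the heart lactate dehydrogenase LDHB at 2738 and 2759. Of the glucose transporters, SLC2A3 read 121 and 154, and the liver and muscle transporters SLC2A2, at 2.08 and 7.24, and SLC2A4, at 4.35 and 2.17, were below. SLC2A1, the transporter of most dividing cells, read 24.0 and 42.9 and lost its call at the 99th percentile and with its probe sets averaged.

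Gluconeogenesis, urea cycle and ketone body genes were above in 5 of 17 cases (29.4%). PCK2, the mitochondrial carboxykinase, read 87.0 and 94.0, whereas its cytosolic form PCK1 was below at 7.78 and 3.40. FBP1 was split at 13.8 and 22.6, and G6PC1, the liver glucose phosphatase, was below at 12.2 and 11.5. In the urea cycle CPS1, OTC, ASS1 and ARG1 were below, ASL was split at 26.2 and 18.4, and ARG2, the mitochondrial arginase, read 28.7 and 27.4 and lost its call at the 99th percentile. ASS1, which makes argininosuccinate from citrulline, read 8.42 and 7.88.

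**Figure D5:**
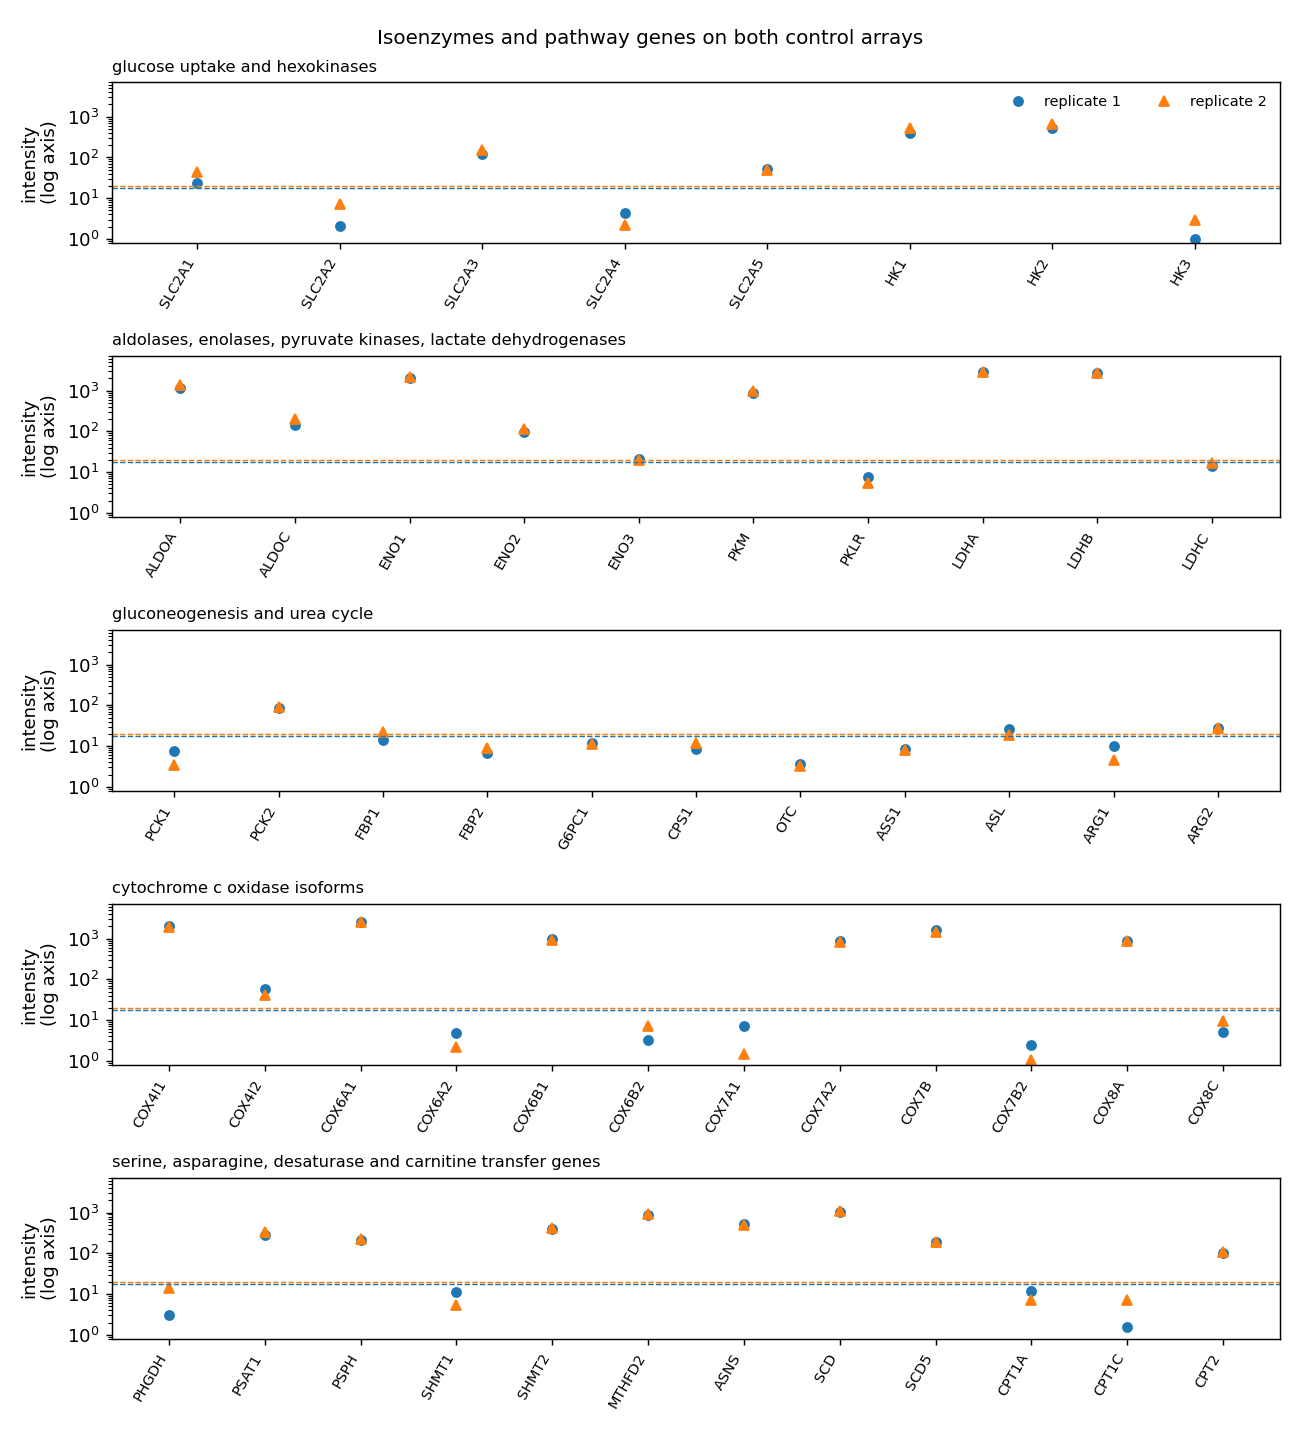
Intensity (log axis) of isoenzymes and pathway genes on control replicate 1 (circles) and replicate 2 (triangles), with dashed lines at each array's background threshold. In each panel some members lie above both lines while others, such as HK3, PKLR, PCK1, COX6A2, SHMT1 and CPT1A, lie below.

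Mitochondrial pathways were present nearly in full. Tricarboxylic acid cycle genes were above in 24 of 28 cases, with MDH2 at 1443 and 1408, CS, the citrate synthase, at 509 and 546, and OGDH at 25 and 29.9, where it lost its call at the 99th percentile and with its probe sets averaged. ACLY, which turns citrate into acetyl-CoA, read 558 and 549. Subunits of the respiratory chain were above in 64 of 70 (91.4%), with a median of 452, and all 64 were above at the 99th percentile. The ubiquitous forms of cytochrome oxidase subunits were above, with COX4I1 at 1987 and 1985, COX6A1 at 2624 and 2499, and COX7A2 at 860.3 and 833. The heart and muscle forms COX6A2, at 4.86 and 2.22, and COX7A1, at 7.35 and 1.51, were below, but COX4I2, a lung form, read 59.0 and 41.7.

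Amino acid and folate genes were above in 28 of 38 cases. In the serine pathway the enzymes after the first step were above, PSAT1 at 274 and 342 and PSPH at 217 and 224, while that of the first step, PHGDH, was below at 2.99 and 14.0 at its only probe set. The mitochondrial folate enzymes SHMT2, at 393 and 425, and MTHFD2, at 869 and 949, were above, and the cytosolic SHMT1 was below at 11 and 5.41. ASNS, which makes asparagine, read 526 and 486, and GLUL, which makes glutamine, was below at 12.2 and 14.8. The transporter SLC7A5, for large neutral amino acids, read 204 and 229, and SLC7A11, for cystine, read 44.1 and 63.2.

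Nucleotide genes were above in 26 of 36 cases. Ribonucleotide reductase was above in both subunits, RRM1 at 781 and 797 and RRM2 at 461 and 441. The salvage enzyme HPRT1 read 742 and 723 and DCK read 132 and 109.9. PAICS and PPAT, of the purine pathway, read 686 and 708, and 174 and 173. DHODH, of the pyrimidine pathway, read 61.3 and 57.7. The adenosine enzymes ADA, at 10.3 and 1.00, and NT5E, which encodes CD73, at 6.30 and 5.58, were below.

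Cholesterol genes were above in 20 of 27 cases. HMGCS1, the synthase at the head of the pathway, read 554 and 591, SQLE, the squalene epoxidase, read 747 and 785, and FDPS read 598 and 660.1. INSIG1, which holds the SREBP factors back, read 959 and 835. CYP7A1, the bile acid enzyme of the liver, was below at 1.15 and 12.2. Fatty acid genes were above in 23 of 41 (56.1%). SCD, a desaturase, read 1049 and 1086, SCD5 read 185 and 191, and FASN, the fatty acid synthase, read 113 and 99. FABP5, a fatty acid carrier, read 1297 and 1193. For oxidation, HADHB read 455 and 524 and CPT2 read 99.4 and 105. CPT1A, a carnitine transferase of the outer membrane, at 11.8 and 7.03, and its relative CPT1C, at 1.53 and 7.04, were below. CPT1B was not analysed.

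Pentose phosphate and redox genes were above in 28 of 41 cases. TKT, the transketolase, read 921 and 898 and its relative TKTL1 was below at 9.19 and 3.80. TXN, thioredoxin, read 1394 and 1579, PRDX1 read 1389 and 1347, and SOD1 read 1451 and 1351. GPX4, which repairs lipid peroxides, read 659 and 685, and the gut form GPX2 was below at 8.02 and 9.67. HMOX1, an inducible haem oxygenase, read 28.4 and 32.4. Haem and iron genes were above in 18 of 22. The transferrin receptor TFRC read 1709 and 1835 and the ferritin light chain FTL read 1769 and 1857. ALAS1, the general first enzyme of haem synthesis, read 71.2 and 80.2, and ALAS2, its red cell form, was below at 12.5 and 5.79. The iron exporter SLC40A1 was below at 12.2 and 7.38.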

How the data were processed

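RNA of KM-H2 cells was measured on single-colour Affymetrix arrays, from biotinylated cRNA made by the 1-cycle method after Qiagen column extraction, per the labels' protocols. The deposited values are linear intensities, 1 per probe set and array. The authors' summary and scaling method, and a genome build, are not named in these sources. The control arrays had means of 54.2 and 53.7 and medians of 9.17 and 9.28, and 1006 and 971 of 54613 probe sets lay at a floor of 1. The number of arrays, 2, limits the precision.

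The platform annotation gave 41091 probe sets 1 gene, 1801 several and 11721 none, and 41037 of the first matched a RefSeq gene by number. Symbols follow that table. Levels, calls and lists were computed with Python 3.11.15, numpy 2.4.6 and pandas 2.3.3, and figures with matplotlib 3.10.9. Genes were called against the 95th percentile of the background families on each array, and the steps were tested on simulated data. Among genes with several probe sets (10523), the probe sets of a gene spanned a median of 0.76 on the log2 scale. For those of them above background the median span was 1.61, so many calls rest on the choice of the brightest probe set. Of 1261 listed genes, 1129 were named and the rest were not analysed here.

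No group was compared with another and no test was run. The members and lists were chosen with earlier results of these data known. Genes named by rule were the 5 markers, the 30 highest, the 20 highest after leaving out translation, histone, actin, tubulin and mitochondrial-genome genes, the key genes of each list, its 3 highest other members, and any member whose arrays differed by over 1. Further list members were named after their values were seen. Alternatives were other percentiles (90th and 99th), the mean or median of a gene's probe sets, only probe sets without a suffix (a suffix marks probes that match several transcripts), quantile normalization, pseudocounts of 1 and 64, olfactory receptors alone as background, and each array left out.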

Additional observations from a re-analysis of the deposited data

How the results depend on the processing

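The count of genes above background and the counts in B lineage and Hodgkin genes and in other blood lineages stayed within 1.5 times their values under every alternative run, and so did the count shared with the knockdown arrays under the percentiles and the quantile normalization run for it. Genes of other tissues above background numbered 14 with the mean and 13 with the median of a gene's probe sets, beside 25. With only probe sets without a suffix, which left 385 of 507 named genes, the counts were 12 for other tissues, 126 for signalling and immune genes (194), 47 for cell cycle and ribosomal genes (89) and 163 for metabolism (259). In these counts, and in the list counts under this setting, a gene with no such probe set was counted as not above. Of the 507 genes, 22 lost their call at the 99th percentile, 42 with the mean and 69 with the median of their probe sets, and 53 of 385 without suffixed probe sets. Quantile normalization and the pseudocounts 1 and 64 changed 0 of these calls. The 90th percentile added 11, leaving out replicate 1 added 6 and leaving out replicate 2 added 12. Of the 43 lists, the count was lower by more than 1.5 times in 12 with the median of probe sets, 6 with the mean and 20 without suffixed probe sets, and immunoglobulin genes went from 4 to 0 with the mean or median and to 1 without suffixed probe sets. Intensities near the thresholds of 17.3 and 19.8 limit what can be called, since in genes not above background the 95th percentile of the difference between arrays was 0.53 on the log2 scale. No paired analysis was possible because no groups were compared and the result comes from no test.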

Other observations

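Gene families were also counted over their named members, and all of them were chosen after their values were seen. The share above background over all named genes was 43%. Of 7 MAGE-A genes 5 were above background, MAGEA4, MAGEA6, MAGEA1, MAGEA10 and MAGEA12, and of 6 MAGE-B genes 2 were, MAGEB2 at 598 and 658 and MAGEB1 at 371 and 386. Both named SSX genes were above, with SSX3 at 964 and 944, at probes that can match other SSX genes. Of the 6 haemoglobin chains that were analysed, the embryonic chain HBE1 alone was above, at 432 and 488. The chains HBA1, HBA2, HBG1 and HBG2 were not among the named genes. Of 22 matrix metalloproteinases 2 were above, MMP12, the macrophage elastase, at 1087 and 1091 and MMP9 at 30.3 and 30.9. Of 43 collagens 8 were above, with COL16A1 at 150 and 118.

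Genes named KCNA to KCNH hold voltage-gated potassium channels and the accessory KCNE subunits, and leave out the KCNQ channels. Of 32 such genes 2 were above background, KCNH2, the cardiac hERG channel, at 206 and 191 and KCNA1 at 44.1 and 34.9. In the HOX clusters 4 of 10 HOXB genes (40%), 4 of 9 HOXC genes (44.4%) and 0 of 8 HOXD genes were above background. The HOXB and HOXC shares lay near the 43% of all named genes. At the 99th percentile 1 HOXB gene and 2 HOXC genes were above, the latter being HOXC6 at 229 and 228 and HOXC11 at 42.3 and 44.4. Only 1 gene of the HOXA cluster was analysed here, and it was below. Outside any list, OTX2, a homeobox factor of the developing forebrain, read 248 and 272, TCL1A, a leukaemia oncogene, read 448 and 443, WNT5A, a secreted signalling protein, read 262 and 284, and TEX19, a germ cell gene, read 534 and 606. Among probe sets that the annotation ties to no gene, 1032 of 11721 (8.80%) were above background, against 13187 of 41091 (32.1%) with 1 gene.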
